A study of Mus musculus with 60 samples.

Results

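The 29 genes described here encode the machinery with which mouse cells make cholesterol and fatty acids, together with its transcriptional regulators. They were chosen by name from the SREBP pathway, with earlier results of these data known, out of 19460 gene symbols in the tables of the series. By role they fall into 8 enzymes of the mevalonate arm, which leads from acetyl units to squalene, 10 enzymes of the sterol arm, which turns squalene into cholesterol, 4 regulators and carriers, and 7 enzymes of fatty acid synthesis and modification. All 29 were measured in the cultured cells and in regenerating liver and passed the filter of 1 FPKM in at least 3 samples, and 6 of them are in a smaller table of day 7 cultures.

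SREBP proteins are transcription factors held in the endoplasmic reticulum. When membrane cholesterol is low, the escort protein Scap carries them to the Golgi, where the proteases encoded by Mbtps1 and Mbtps2 cut them and the freed part enters the nucleus. Insig1 and Insig2 keep Scap in the endoplasmic reticulum when sterols are plentiful, and Insig1 is itself a target of SREBPs. The product of Srebf2 mainly drives cholesterol synthesis and uptake, while the liver form made from Srebf1 mainly drives fatty acid synthesis and responds to insulin and to LXR, a receptor for oxidised sterols. The liver makes much of the body's cholesterol and fat, and dividing cells need both for new membranes. RNA levels were measured here, not the cleavage of the proteins.

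The labels give every sample as wild type (WT) and C57BL/6, and the methods name C57BL/6J mice, although the study derived its single-cell clones from hepatocytes of Albumin-Cre; R26R-tdTomato mice, in which Cre switches on a red reporter in hepatocytes. The series compared hepatocytes with cells grown from them in IL6. Primary hepatocytes from adult mice were placed in IL6-HCM, a medium with insulin, transferrin and selenium, EGF, HGF, dexamethasone and IL6, and the resulting IL6-iHPCs (induced hepatic progenitor cells) were sampled at culture days 3 and 14 (passage 0, P0) and as 4 passaged lines, namely mouse-1 and mouse-2 at P10, the single-cell line clone-1 at P20, and mouse-1 again at P35. Each passaged line was also sampled as IL6-iMHs (mature hepatocytes), after 7 days in a maturation medium with oncostatin M and more dexamethasone and without IL6, EGF or HGF. Freshly isolated hepatocytes were the control, every group had 3 samples, and mouse-1 supplied 2 of the 4 lines. The study's legends call repeats of a cell group technical, so that p-values over them cover the spread between repeats and not between cultures or mice. A separate table compared primary hepatocytes with cells kept for 7 days in HCM with IL6 (IL6-iHPCs-D7) or without it (HCM-Hepa-D7). Whole liver was sampled from untreated mice (normal liver) and 6 hours, 24 hours, 3 days, 7 days and 14 days after partial hepatectomy (PHX), with 3 samples at each time. No sham operation is among these groups, and the labels do not say whether the samples of a time came from separate animals.

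Values are FPKM, a read level corrected for transcript length and sequencing depth. Library depth, recovered as whole reads, was 49.3 to 88.8 M reads in the cell samples and 46.8 to 73.9 M reads in the liver samples, and the members were covered by 233 to 309158 reads in a cell sample and by 131 to 450543 in a liver sample. The summed FPKM of 6 hepatocyte markers (Alb, Hnf4a, Apoa1, Ttr, Cps1 and Tat) was 71432 to 77049 in hepatocytes, 590 to 708 at day 3, 3818 to 4831 at day 14, 1822 to 9346 in passaged IL6-iHPCs and 59281 to 80653 in IL6-iMHs. The FPKM scale itself shifted between groups, since over the 12328 genes tested the median log2 fold change was 1.14 at day 3, 1.00 at day 14 and 0.93 in passaged IL6-iHPCs against hepatocytes. Counts of members called are therefore also given after quantile normalisation, which removes most of the shift. The shares of all genes called belong to the fit without this normalisation. None was computed after it, so the quantile counts have no share of all genes to be set against. The groups also differed in reads on 4 Y-linked genes, which numbered 994 to 1550 in hepatocytes, 13066 to 18444 at day 3, 9185 to 10803 at day 14, 6575 to 9095 in clone-1 IL6-iHPCs and 0 to 2 in the mouse-1 and mouse-2 lines and in all IL6-iMHs. Every cultured group thus stood apart from the hepatocytes it was compared with. Day 3, day 14 and clone-1 IL6-iHPCs held more of these reads than hepatocytes, and the other groups fewer. The part of this in the results was not tested. Within the clone-1 line the IL6-iHPC samples held these reads and the IL6-iMH samples 0, so counts of members over the lines are also given without it.

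The promoters of most members shared a sequence feature. NF-Y, a factor known to bind next to SREBPs, recognises CCAAT, and this box (searched as CCAAT and its reverse complement ATTGG) was present in the window from 250 bases before to 50 bases after the start of 21 of the 24 members with a RefSeq window, or 87.5%, against 41.1% of 27025 genes. A gene with several windows was counted when any of them held the box. Counted in this way, the box was in 9 of 9 genes of the sterol arm, 5 of 6 of the mevalonate arm, 3 of 3 regulators and 4 of 6 fatty acid genes. By window it was in 22 of 30 of the members (73.3%), against 37.4% of 32851 windows. The sterol regulatory element in the form TCACNCCAC, searched on both strands, was found only before Hmgcs1, in 1 of 24 members or 4.17%, against 1.44% of genes. Windows for Fdps, Fdft1, Sqle, Stard4 and Scd1 were not used here. A match is a run of letters and not a measured binding site, and a missing match says nothing about the factor.

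For 5 genes the 180 bases that end just before the transcription start are printed here, 1 or more per role, because these genes carry the results further on. They are RefSeq sequences of build GRCm38.p6, written 5' to 3' on the gene's strand, with the CCAAT or ATTGG boxes and the sterol regulatory element in capitals. Hmgcs1 (chr13:119690171-119690350, plus strand) and Idi1 (chr13:8885426-8885605, plus strand) belong to the mevalonate arm, Msmo1 (chr8:64733579-64733758, minus strand) to the sterol arm, Srebf2 (chr15:82147089-82147268, plus strand) to the regulators and Fasn (chr11:120824548-120824727, minus strand) to fatty acid synthesis.
Hmgcs1: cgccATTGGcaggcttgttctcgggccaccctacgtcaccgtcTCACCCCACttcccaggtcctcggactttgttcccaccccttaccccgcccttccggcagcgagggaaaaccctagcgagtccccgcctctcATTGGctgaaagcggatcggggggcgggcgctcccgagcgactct
Idi1: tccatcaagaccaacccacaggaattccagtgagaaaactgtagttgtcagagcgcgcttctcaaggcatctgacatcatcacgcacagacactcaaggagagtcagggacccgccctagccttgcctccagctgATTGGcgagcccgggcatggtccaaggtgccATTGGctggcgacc
Msmo1: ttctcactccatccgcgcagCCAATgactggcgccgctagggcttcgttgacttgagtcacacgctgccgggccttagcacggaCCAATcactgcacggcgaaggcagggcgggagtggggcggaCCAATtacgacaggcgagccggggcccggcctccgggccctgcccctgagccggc
Srebf2: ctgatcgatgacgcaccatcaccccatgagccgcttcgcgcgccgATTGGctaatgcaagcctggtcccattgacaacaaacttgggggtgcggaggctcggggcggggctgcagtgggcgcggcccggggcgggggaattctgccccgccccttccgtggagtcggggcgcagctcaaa
Fasn: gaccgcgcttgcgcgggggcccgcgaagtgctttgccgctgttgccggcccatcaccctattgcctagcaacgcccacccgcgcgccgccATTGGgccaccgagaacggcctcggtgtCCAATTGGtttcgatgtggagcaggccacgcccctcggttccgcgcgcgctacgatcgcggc
The Hmgcs1 stretch holds the sterol regulatory element TCACCCCAC between its ATTGG boxes, the Msmo1 stretch holds 3 CCAAT boxes, and in Fasn a CCAAT and an ATTGG overlap.

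Most of the pathway was lower after 3 days of culture. At day 3, 19 of 29 members were lower and 2 were higher than in hepatocytes (adjusted p under 0.05 and at least 2-fold), where 12.1% of all genes were called lower and 53.9% higher, or 66% either way. The median log2 fold change of the members was -1.66 against 1.14 over all genes, only 1 member lay above the all-gene median, and after quantile normalisation 23 members were lower and 1 higher. Without any threshold, 24 members lay below every hepatocyte sample and 4 above (19.5% and 72.6% of all genes), and only Fasn overlapped. Day 3 was also the lowest of the 11 cell groups for 20 of the 29 members. Hepatocyte markers were lower in the same samples, and so were the sums of 6 Kupffer cell markers (10.5 to 12.7 FPKM in hepatocytes and 0.0648 to 0.143 at day 3, with Clec4f and Marco at 0) and of 6 endothelial markers (17.2 to 19.6 and 5.69 to 7.02 FPKM). The sum of 4 cholangiocyte markers (Krt19, Krt7, Epcam and Sox9) went from 0.865 to 1.67 FPKM, with Krt7 at 0, to 27.1 to 31.4 FPKM at day 3 and 113 to 125 FPKM at day 14. The sum of 6 stellate cell markers was 0.646 to 0.974 FPKM in hepatocytes and 0.758 to 1.21 FPKM at day 3. At day 14 it was 24.7 to 25.9 FPKM, with 5 of the 6 under 1 FPKM. The part of these markers in the result was not tested. In such bulk samples, fewer cells of a type and less RNA per cell cannot be told apart.

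All 8 mevalonate enzymes fell at day 3. The largest log2 fold changes were those of Pmvk (-3.26), the second kinase of the arm, Fdps (-2.98), which makes farnesyl diphosphate, and Mvk (-2.08), the first kinase. Pmvk measured 57, 52.3 and 52.7 FPKM in the 3 hepatocyte samples and 4.26, 4.93 and 5.02 FPKM at day 3. Acat2, which joins acetyl units at the start of the arm, measured 34, 34.8 and 30.8 FPKM in hepatocytes and 7.42, 10.1 and 7.6 FPKM at day 3. In both genes the groups were far apart and neither overlapped.

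In the sterol arm 7 of 10 enzymes fell. Tm7sf2, a sterol reductase, had the largest change of any member, from 167, 148 and 155 FPKM to 2.77, 3.44 and 3.55 FPKM (37.1-fold lower, log2 fold change -5.22 ± 0.08 (SE), adjusted p = 3.67e-30). Ebp, a sterol isomerase, changed by -2.75 and Msmo1, a demethylating oxidase, by -2.65 on the log2 scale. Cyp51, the lanosterol demethylase, measured 46.4, 46.9 and 51.6 FPKM before and 6.99, 7.23 and 7.72 FPKM after. Sqle, the squalene epoxidase that sets the pace of the later steps, measured 26, 28.9 and 22.8 FPKM and then 12.9, 13 and 14 FPKM, and its log2 fold change of -0.91 stayed under the 2-fold threshold, as did that of Lss (-0.97), which closes the sterol rings, and of Hsd17b7.

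Regulators divided at day 3. Insig1 went from 120.1, 124 and 127 FPKM to 4.36, 5.79 and 4.71 FPKM (21.1-fold lower, log2 fold change -4.40 ± 0.08 (SE)). Stard4, a carrier of cholesterol between membranes, went from 14.4, 17.1 and 16.5 FPKM to 4.37, 6.22 and 5.11 FPKM (log2 fold change -1.45). Srebf1 measured 45.7, 45.1 and 35.3 FPKM and 24, 20.4 and 23.9 FPKM (-0.85), below every hepatocyte sample but under 2-fold. Srebf2 alone of the 4 lay higher, at 21.9, 19.4 and 22.3 FPKM against 13.2, 13.1 and 10.7 FPKM, but its log2 fold change of 0.74 was smaller than the median rise of all genes and below the 2-fold threshold.

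Fatty acid genes moved in both directions. Scd1, the desaturase that makes oleate, went from 408, 499 and 407 FPKM to 21.2, 17.8 and 24.4 FPKM (log2 fold change -4.31 ± 0.12 (SE)), and Acss2, which activates acetate, from 79.8, 81 and 86.7 FPKM to 4.92, 5.61 and 5.9 FPKM (-3.69). Fasn, the fatty acid synthase, measured 22.4, 29 and 17.7 FPKM and 21.8, 16.6 and 21.9 FPKM, with a log2 fold change of -0.17 and adjusted p = 0.324. Me1, which supplies NADPH, was higher (1.41). Elovl6, which lengthens palmitate, was called higher (1.05), but its value turned to -0.45 after quantile normalisation and the call was lost without hepatocyte replicate 3 (0.98).

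**Figure D1:**
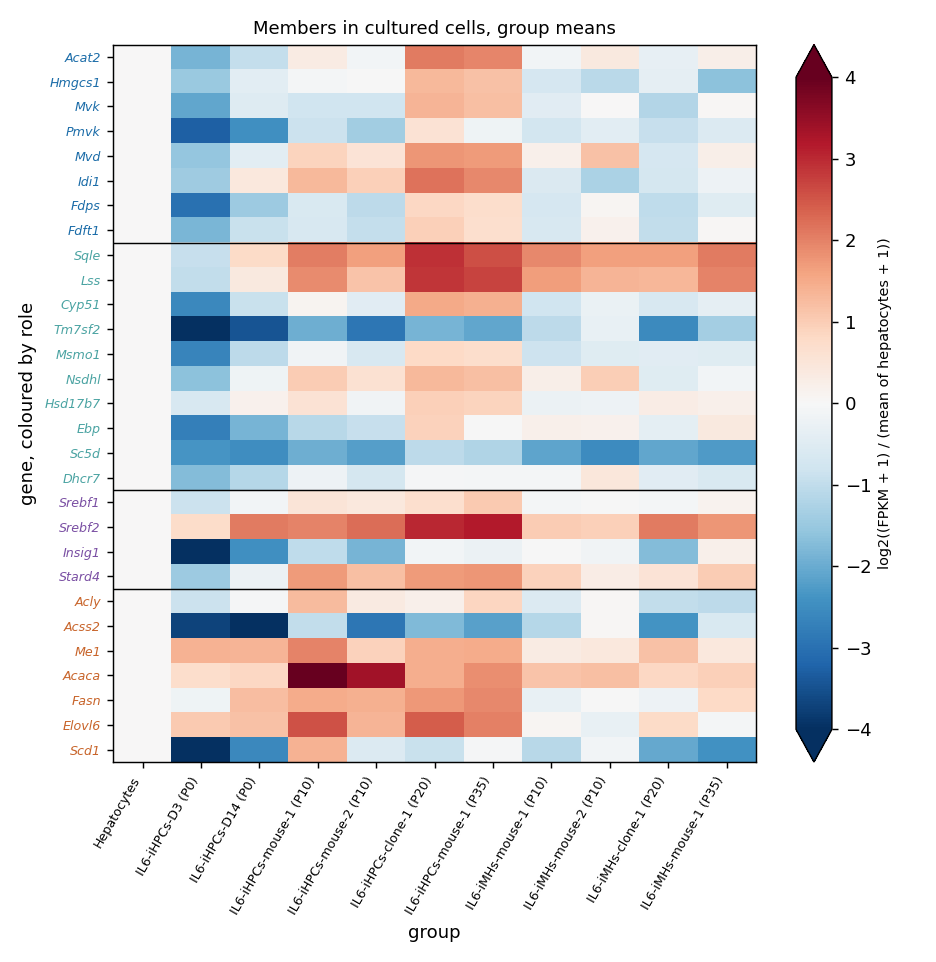
Level of each of the 29 members in the 11 cell groups, as the colour of log2 of the ratio of (group mean FPKM + 1) to that of hepatocytes, cut at -4 and 4; rows are genes coloured by role and columns are groups. The day 3 column is the lowest of all groups for 20 of the 29 genes, and clone-1 IL6-iHPCs hold the highest value for 15.

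By day 14 part of this loss was made up. Against day 3, 16 of 29 members were higher and none lower, where 5.12% of all genes were called higher and 5.05% lower. The median log2 fold change of the members was 1.12 against -0.16 over all genes, and 23 were higher after quantile normalisation. Every sample at day 14 lay above every sample at day 3 for 26 of 29 members (25.7% of all genes). The mevalonate enzymes Idi1 (1.83), an isomerase, Mvk (1.57) and Fdps (1.52) led the first arm, and Tm7sf2 (1.76), Sqle (1.68) and Cyp51 (1.68) the second. Mvd, the decarboxylase of the mevalonate arm, was called at 1.12 but was 0.9987 without day 3 replicate 3.

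The regulators rose with their enzymes between day 3 and day 14. Insig1 measured 21.3, 23.3 and 20.5 FPKM at day 14 (log2 fold change 1.93 ± 0.08 (SE) against day 3), Stard4 13.7, 13.3 and 13.4 FPKM (1.23) and Srebf2 56.1, 57.1 and 51.7 FPKM (1.33). Srebf1 measured 40.5, 40 and 34.9 FPKM, a change of 0.73 that did not reach 2-fold. Among fatty acid genes Scd1 (82.4, 71.5 and 63.3 FPKM, 1.73) and Fasn (58.8, 56.5 and 51.1 FPKM, 1.43) rose, while Acss2 stayed at 4.07, 3.66 and 3.38 FPKM.

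Day 14 cells were still not at the level of hepatocytes for the sterol arm. Compared with the same hepatocyte samples as above, 10 members were lower and 4 higher (12.9% and 50% of all genes, 62.9% either way), with a median of -0.44 against 1.00 over all genes, and with 14 lower and 2 higher after quantile normalisation. Tm7sf2 (-3.46; 12.8, 13.8 and 13.4 FPKM), Sc5d (-2.48), a sterol desaturase, Ebp (-1.84), Dhcr7 (-1.15), a reductase at the end of the arm, and Msmo1 (-1.04) were the lower enzymes of this arm. Pmvk (-2.45) and Fdps (-1.45), Insig1 (-2.46), Acss2 (-4.15) and Scd1 (-2.58) made up the rest. The 4 higher genes were Srebf2 (2.08), Me1 (1.35), Fasn (1.26) and Elovl6 (1.17), of which Fasn fell just under 2-fold (0.99) and Elovl6 turned to -0.16 after quantile normalisation.

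At day 7 the smaller table held Srebf1, Fasn, Hmgcs1, Cyp51, Msmo1 and Hsd17b7. Its 276 tested genes are part of the transcriptome only, and its depth is unknown. With IL6 against without IL6, none of the 6 members passed both thresholds by limma (5.43% of genes did, 4.71% higher), although 5 had an adjusted p under 0.05 and 5 an unadjusted one, all of them higher with IL6. Srebf1 measured 37.5, 41.5 and 37.5 FPKM with IL6 and 28.3, 29.3 and 29.9 FPKM without, a log2 fold change of 0.40 ± 0.05 (SE) with adjusted p = 6.27e-05. Cyp51 measured 35.8, 31.3 and 35.5 FPKM against 20, 18.9 and 21.2 FPKM, again with no overlap. Hmgcs1, the synthase at the entry of the mevalonate arm, measured 58.6, 38.5 and 58 FPKM against 32.1, 36.3 and 39.8 FPKM, where the lowest IL6 sample lay inside the range without IL6. Fasn measured 39, 35.9 and 34.7 FPKM against 30.5, 38.6 and 37.2 FPKM and the groups overlapped.

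Against primary hepatocytes both day 7 cultures were lower for the same pair of genes, in comparisons that share the primary samples. These are not the hepatocyte samples used for day 3 and day 14, in which both genes had lower FPKM. Against those other hepatocytes Fasn was not called at day 3 and was called higher at day 14. The lower calls here thus hold against these primary samples only. Srebf1 measured 116, 122 and 121 FPKM in primary hepatocytes, which gave log2 fold changes of -1.60 with IL6 and -2.001 without. Fasn measured 87.4, 92.3 and 88.6 FPKM in primary hepatocytes, with -1.27 and -1.32. Lower calls made up 6.88% of genes with IL6 and 8.33% without, and the median log2 fold change over the tested genes of this table was 0.85 and 0.87. After quantile normalisation 4 members were called lower with IL6 and 6 without.

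In the passaged lines more members were higher than lower. Averaged over the 4 lines of IL6-iHPCs, 12 members were higher and 3 lower than in hepatocytes, where 48.1% of all genes were called higher and 11.3% lower (59.4% either way). The share of members called higher was thus below that of all genes, and their median of 0.65 lay below the all-gene median of 0.93. After quantile normalisation 7 were higher and 3 lower, and without clone-1 10 were higher and 4 lower. Cholangiocyte markers summed to 47.6 to 88.3 FPKM in the P10 lines, 765 to 912 FPKM in clone-1 and 515 to 525 FPKM in mouse-1 P35. Stellate cell markers summed to 10.2 to 19.4 FPKM in mouse-1 P10 and 3.43 to 5.25 FPKM in the other lines, with 5 of the 6 under 1 FPKM in each line. The part of these markers in the levels of the members was not tested. The mean of the summed FPKM of the 18 cholesterol enzymes was 1222 in hepatocytes, 219.8 at day 3, 525.6 at day 14, 997.6 and 761.5 in the mouse-1 and mouse-2 lines at P10, 2295 in clone-1 and 1945 in mouse-1 at P35.

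Of the 4 regulators, Srebf2 differed most from hepatocytes in these lines. It measured 50, 51.6 and 53.9 FPKM in mouse-1 P10, 61.9, 62 and 62.3 FPKM in mouse-2 P10, 109, 111 and 101 FPKM in clone-1 and 117, 124 and 119 FPKM in mouse-1 P35, against 13.2, 13.1 and 10.7 FPKM in hepatocytes. The log2 fold change of the line average was 2.62 ± 0.07 (SE; adjusted p = 9.94e-25), or 6.13-fold. Every line lay above every hepatocyte sample. Stard4 (54.9 ± 12.2, 37.7 ± 2.25, 54.9 ± 7.55 and 56.8 ± 0.797 FPKM (mean ± SD, n = 3) in the same order of lines) was also higher (1.59). Srebf1, at 59.9 ± 3.53, 56.5 ± 2.81, 68 ± 2.26 and 88.8 ± 4.23 FPKM, differed from hepatocytes by 0.67, below the 2-fold threshold. Insig1 measured 70.5, 52.9 and 58.3 FPKM in mouse-1 P10, 33.3, 33 and 34.2 FPKM in mouse-2 P10, 118, 116 and 111 FPKM in clone-1 and 102, 107 and 106 FPKM in mouse-1 P35, so that all samples of the lines lay below every hepatocyte sample (-0.81) while Srebf2 was above it.

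**Figure D2:**
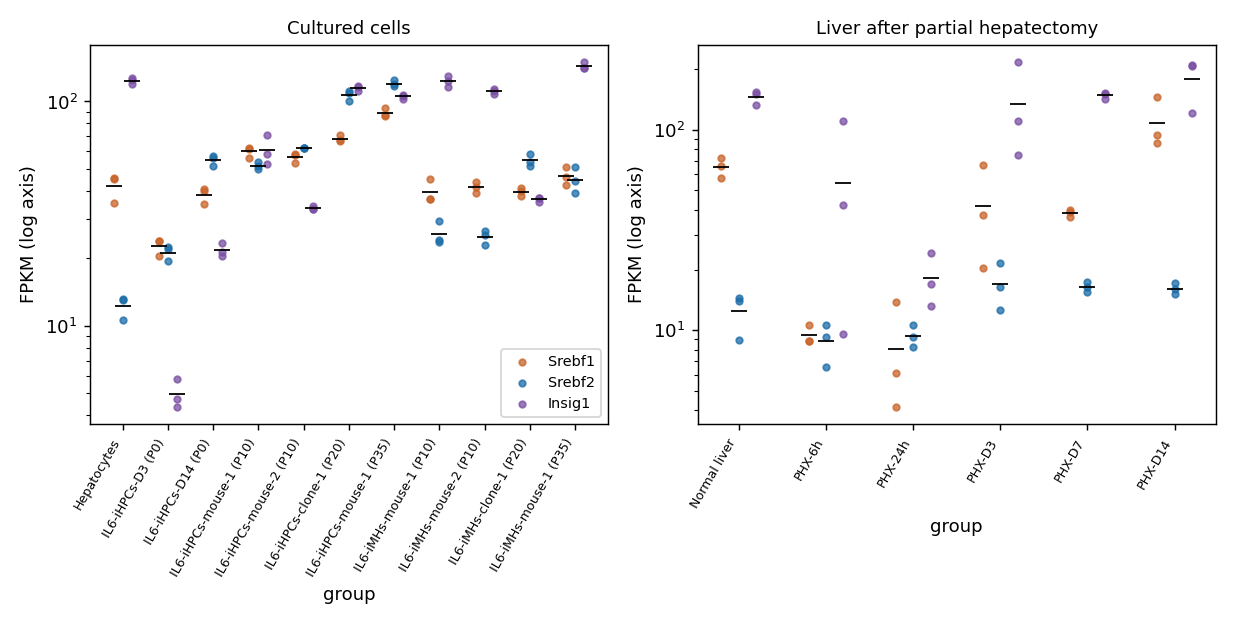
Level of Srebf1, Srebf2 and Insig1 in FPKM (log axis) in the cell samples (left) and liver samples (right); each point is 1 sample, colour marks the gene and the bars are group means. Srebf2 in the 4 IL6-iHPC lines (50 to 124 FPKM) lies above hepatocytes (10.7 to 13.2 FPKM), and Srebf1 in PHX-6h liver (8.84 to 10.6 FPKM) below normal liver (57.7 to 72.0 FPKM).

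Enzymes were not raised evenly. In the sterol arm Sqle (2.30), Lss (2.15) and Nsdhl (1.04), a sterol dehydrogenase, were higher, while Tm7sf2 (-2.20) and Sc5d (-1.61) were lower. Sqle measured 112, 105 and 111 FPKM in mouse-1 P10, 84.7, 81.1 and 82.6 FPKM in mouse-2 P10, 195, 206 and 203 FPKM in clone-1 and 159.6, 161 and 160.4 FPKM in mouse-1 P35. Tm7sf2 measured 39.6 ± 1.55, 20.1 ± 1.07, 42.5 ± 1.16 and 36.1 ± 0.161 FPKM (mean ± SD, n = 3) in that order of lines. For both genes all 12 samples of the lines lay on 1 side of the hepatocytes. In the mevalonate arm Idi1 (1.59), Mvd (1.22) and Acat2 (1.06) were called higher, with Acat2 spread widely, from 30.6 ± 0.902 FPKM in mouse-2 P10 to 142 ± 6.29 FPKM in clone-1. Among fatty acid genes Acaca (2.68), the carboxylase that makes malonyl units, Elovl6 (2.08), Fasn (1.66) and Me1 (1.47) were higher and Acss2 (-1.96) lower.

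In the mouse-1 P10 line 12 members were higher and 5 lower than in hepatocytes (40% and 12.6% of all genes, 52.6% either way), and in mouse-2 P10 7 and 6 (42.8% and 13.1%). In clone-1 15 were higher and 3 lower (51.5% and 10.4%), and in mouse-1 P35 16 and 3 (54.3% and 11.7%). After quantile normalisation the higher and lower counts were 10 and 3, 4 and 6, 11 and 3, and 8 and 3 in that order, so that in mouse-2 more members were then lower than higher. Line by line, 7 members were higher in each of the 4 lines, namely Acaca, Elovl6, Fasn, Lss, Sqle, Srebf2 and Stard4, where 31.4% of all genes were. Acss2, Sc5d and Tm7sf2 were lower in each line (7.99% of all genes). The lines share the hepatocyte samples, and without clone-1 the counts were again 7 and 3. After quantile normalisation 3 were higher and 2 lower in all lines.

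Scd1 and Acaca varied widely between lines, with Acaca at 15.3 to 110.3 FPKM over the 12 samples. Scd1 measured 1024, 1172 and 1221 FPKM in mouse-1 P10, 298, 301 and 305 FPKM in mouse-2 P10, 237 ± 20.2 FPKM (mean ± SD, n = 3) in clone-1 and 420.2, 416 and 427 FPKM in mouse-1 P35, against 408, 499 and 407 FPKM in hepatocytes. The lines lay on both sides of the hepatocytes, and their average differed from them by -0.02 (adjusted p = 0.851). Mouse-1 at P10 held the highest group mean of the cell table for 5 members, all of them fatty acid genes (Acaca, Acly, Elovl6, Me1 and Scd1), and clone-1 IL6-iHPCs for 15 members. The summed FPKM of the 7 fatty acid genes was 1668 ± 100.3 (SD, n = 3) in mouse-1 P10 and 538.9 in clone-1, while that of the cholesterol enzymes was higher in clone-1.

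**Figure D3:**
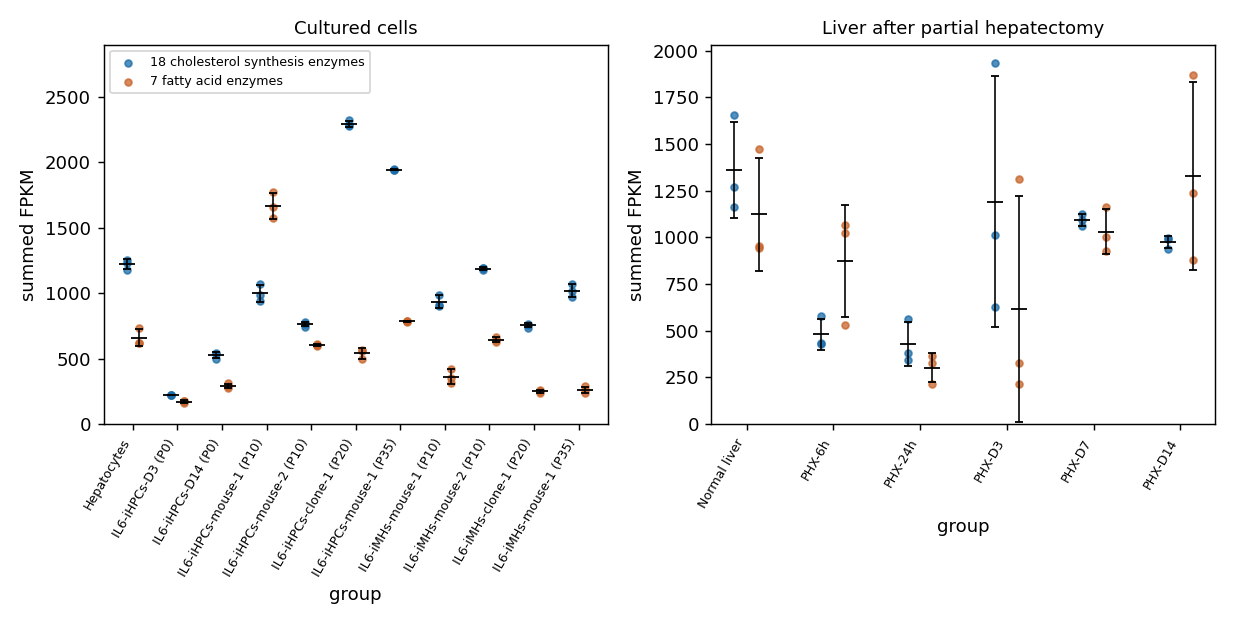
Summed FPKM of the 18 cholesterol enzymes and of the 7 fatty acid genes in each group of the cell and liver tables; bars are means of 3 samples, error bars are SD and points are samples. The cholesterol sum was 219.8 at culture day 3 and 2295 in clone-1 IL6-iHPCs, and in liver 1362 in normal samples and 428.8 at 24 hours after PHX.

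From P10 to P35 of the mouse-1 line the medians of the arms differed. The median log2 fold change was 1.28 in the mevalonate arm and 0.65 in the sterol arm. It was 0.68 in the regulators and -0.53 in the fatty acid arm, against 0.36 over all genes. After quantile normalisation these medians were 0.90, 0.21, 0.21 and -1.12 in that order, against 0.02. Over all members the median was 0.61. The counts were near the share of all genes, with 8 members higher (27.6%) and 3 lower (10.3%), where 24.8% of all genes were called higher and 8.94% lower. The 8 were Mvk (2.01), Acat2 (1.64), Fdps (1.32), Fdft1 (2.47-fold), the squalene synthase, and Hmgcs1 (1.25) in the mevalonate arm, Cyp51 (1.33) and Ebp (1.09) in the sterol arm, and Srebf2 (1.20). The 3 lower genes were fatty acid genes, Acaca (-2.10), Scd1 (-1.43) and Acss2 (-1.17). Acat2 measured 50.9, 37.1 and 38.6 FPKM at P10 and 140.4, 129 and 129 FPKM at P35, and Acss2 46.2, 35.8 and 40.8 FPKM and 16.6, 18.3 and 17.8 FPKM, without overlap in either. After quantile normalisation only Mvk and Acat2 were called higher, and 5 fatty acid genes (Acaca, Scd1, Acss2, Elovl6 and Me1) lower. Cells of only 1 mouse were compared.

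Members of all 4 roles were lower after maturation. Over the 4 lines, 10 members were lower and none higher in IL6-iMHs than in IL6-iHPCs, where 21.4% of all genes were called lower and 6.68% higher (28.1% either way). The median was -0.74 against -0.40 over all genes. After quantile normalisation 9 were lower and 1 higher. Without clone-1 9 were lower and 3 higher. The 10 were Idi1 (-2.29), Hmgcs1 (-1.54) and Acat2 (-1.02, and -0.98 without mouse-1 P10 IL6-iHPC replicate 1) of the mevalonate arm, Cyp51 (-1.17), Srebf2 (-1.16), and 5 of the 7 fatty acid genes, Elovl6 (-1.96), Acaca (-1.64), Fasn (-1.58), Scd1 (-1.40) and Acly (-1.31), which splits citrate into acetyl units.

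Only Idi1, Fasn and Elovl6 were lower in each of the 4 lines on its own, where 3.33% of all genes were, and 1 member was after quantile normalisation. Without clone-1 the count was again 3. Idi1 ranged from 22.6 to 64.4 FPKM in the 12 IL6-iHPC samples (median 39.3) and from 3.20 to 11.6 FPKM in the 12 IL6-iMH samples (median 7.33), so that the groups did not overlap. Fasn measured 60.3, 64.6 and 73.3 FPKM before and 15.1, 25.1 and 15.9 FPKM after maturation in mouse-1 P10, and 60.7, 61.8 and 66.8 FPKM and 25.1, 24 and 19.6 FPKM in mouse-2 P10. In clone-1 it measured 83.1, 81.9 and 72.3 FPKM and 22.1, 19.5 and 18 FPKM, and in mouse-1 P35 87.1, 94.5 and 86.8 FPKM and 38.3, 32 and 52.5 FPKM. In each line every sample was lower after maturation, although the mouse-1 P35 call (-1.14) was lost without its IL6-iMH replicate 2 (-0.98).

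The lines otherwise differed in their change from IL6-iHPCs to IL6-iMHs. In mouse-1 P10, 7 members were lower and 2 higher (15.4% and 9.59% of all genes), and in mouse-2 P10 6 were lower and 7 higher (28.6% and 11.2%, 39.9% either way). In clone-1 21 were lower and none higher (17.7% and 5.86%), and in mouse-1 P35 16 were lower and 1 higher (35.1% and 10.2%, 45.3% either way). After quantile normalisation the lower and higher counts were 10 and 0, 5 and 5, 17 and 0, and 11 and 2 in that order of lines. The mouse-1 P10 calls that were lower lay almost wholly in the fatty acid arm (median -1.81 against -0.25 in the mevalonate arm), with Acaca (-2.85), Scd1 (-2.49) and Elovl6 (-2.47) the largest. In clone-1 the mevalonate arm had the lowest median (-2.18), led by Idi1 (-2.89), Mvk (-2.55) and Mvd (-2.44). The clone-1 IL6-iHPC samples held 6575 to 9095 reads on the 4 Y-linked genes and the clone-1 IL6-iMH samples 0. Whether both groups came from the same clone was not tested, so the clone-1 differences may not be those of maturation alone.

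The genes that rose on maturation of mouse-2 came from all 4 roles. Acss2 measured 10.2, 9.7 and 10.5 FPKM before and 81.5, 82.9 and 91.1 FPKM after maturation (log2 fold change 2.95 ± 0.08 (SE)), and Tm7sf2 21.1, 20.4 and 19 FPKM and 130.4, 127 and 128 FPKM (2.61 ± 0.08). Dhcr7 (1.17), Ebp (1.12), Fdps (1.14) and Fdft1 (1.11) were the other enzymes called higher. Insig1 went up in mouse-1 P10, from 70.5, 52.9 and 58.3 FPKM to 116, 130.4 and 123 FPKM (1.02, and 0.93 to 0.9996 without IL6-iHPC replicate 2 or 3 or IL6-iMH replicate 2), and in mouse-2 P10, from 33.3, 33 and 34.2 FPKM to 108, 112 and 114 FPKM (1.70). It went down in clone-1, from 118, 116 and 111 FPKM to 37.2, 37 and 35.8 FPKM (-1.62), and measured 141, 150.2 and 141 FPKM after maturation in mouse-1 P35 (0.45).

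In mouse-1 P35 the lower genes were 6 of 8 mevalonate enzymes, 4 of 10 sterol enzymes, Srebf2 and 5 of 7 fatty acid genes. Hmgcs1 (-2.83), Scd1 (-2.37), Idi1 (-2.12), Elovl6 (-2.08), Acly (-1.92), Cyp51 (-1.78) and Acat2 (-1.73) changed most in their arms, and Srebf2 went from 117, 124 and 119 FPKM to 44.1, 39 and 51.1 FPKM (-1.41). Acss2 was the 1 gene that rose (1.54). Cholangiocyte markers summed to 515 to 525 FPKM before and 115 to 142 FPKM after maturation in mouse-1 P35. Kupffer cell markers summed to 0.0404 to 0.185 FPKM before and 17.8 to 21.3 FPKM after, with 5 of the 6 then under 1 FPKM. The part of these markers in the result was not tested. The difference between the P35 and the P10 response of the mouse-1 line was tested as an interaction, in which 2 members were higher and 4 lower (9.65% and 24.1% of all genes), with a median of -0.49 against -0.36 over all genes. The response of Hmgcs1 was more negative at P35 (difference of log2 fold changes -2.22 ± 0.08 (SE)), as was that of Mvk (-1.52), Acat2 (-1.31) and Fdps (-1.12, -0.82 after quantile normalisation and then under 2-fold). It was more positive for Acaca (1.94) and Acss2 (1.67). After quantile normalisation the balance turned to 4 higher and 3 lower, as Me1 (1.17) and Fasn (1.002) joined the higher ones.

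**Figure D4:**
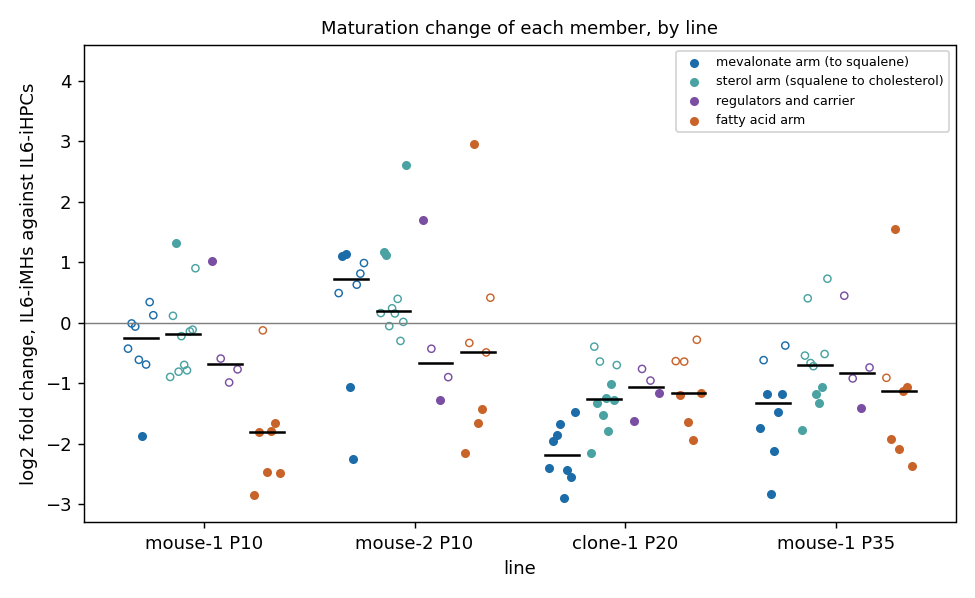
Change of each member from IL6-iHPCs to IL6-iMHs in the 4 lines, as log2 fold change on the log2(FPKM + 1) scale; each point is 1 gene, colour marks its role, filled points passed both thresholds and black bars are medians of a role. The fatty acid median is -1.81 in mouse-1 P10 and the mevalonate median -2.18 in clone-1, while in mouse-2 P10 the mevalonate median is 0.72. The clone-1 IL6-iHPC samples held 6575 to 9095 reads on 4 Y-linked genes and the clone-1 IL6-iMH samples 0.

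After maturation, 4 members were higher and 4 lower than in hepatocytes over the 4 lines, and 21 did not pass the test, where 24.8% of all genes were called higher and 7.79% lower. The median was -0.17 against 0.46, and no mevalonate enzyme was called. After quantile normalisation 2 were higher (Sqle and Lss) and 4 lower (Sc5d, Scd1, Tm7sf2 and Idi1). Without clone-1 4 were higher and 3 lower. Sqle (1.82), Lss (1.59), Srebf2 (1.45) and Acaca (1.04, and 0.96 to 0.99 without hepatocyte replicate 1 or 3 or mouse-1 P10 IL6-iMH replicate 2) were higher. Sc5d (-2.24), Scd1 (-1.42), Tm7sf2 (-1.31) and Acss2 (-1.03, and -0.99 without hepatocyte replicate 3) were lower. Sqle stayed at 101 ± 12.9, 83.6 ± 0.805, 82.9 ± 5.26 and 112 ± 11.7 FPKM (mean ± SD, n = 3) in the lines of mouse-1 (P10), mouse-2, clone-1 and then mouse-1 (P35), all above 25.9 ± 3.05 FPKM in hepatocytes. Sqle and Lss were higher in each line (12.3% of all genes) and Sc5d lower (5.22%). Without clone-1 the counts in each line were again 2 and 1.

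The 22 other genes of the SREBP pathway and its cargo, and 7 genes of LXR sensing and sterol export, were followed beside the members. At day 3, 10 of the 22 were lower and 5 higher than in hepatocytes (12.1% and 53.9% of all genes), or 10 and 2 after quantile normalisation, with Thrsp (-5.13), a lipogenic nuclear protein, and Dgat2 (-2.26), which makes triglyceride, the lowest. The protease gene Mbtps2 (3.04) and the prenyl synthase gene Ggps1 (2.59) were the highest. In passaged lines 10 were higher and 4 lower (48.1% and 11.3% of all genes), or 8 and 5 after quantile normalisation, with Acsl3 (2.68) and Mbtps2 (2.64) at one end and Thrsp (-5.31) and Acacb (-2.02) at the other. The sterol exporters Abcg5 (-3.85) and Abcg8 (-3.74) were lower there and the exporter Abca1 was higher (1.93, not called after quantile normalisation). From P10 to P35 Thrsp (-6.25), Mlxipl (-3.75), the carbohydrate response factor, and Abca1 (-3.18) fell.

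In regenerating liver the members fell within 6 hours of PHX. At that time 18 of 29 were lower and none higher than in normal liver, where 11.5% of all genes were called lower and 4.78% higher, and 14 of the 18 calls held whichever library was left out. The median was -1.38 against -0.28 over all 11114 genes tested, and 14 members were lower after quantile normalisation. Without any threshold 22 members lay below every normal sample (48.6% of all genes). At 24 hours 22 were lower and none higher (4.16% and 3.74% of all genes), with a median of -1.56 against -0.02, and 18 of these calls held whichever library was left out. Every 24 hour sample lay below every normal sample for 26 of 29 members (25.4% of all genes). After quantile normalisation 21 were lower. The hepatocyte marker sum was 51049 to 55440 in normal liver, 41966 to 49920 at 6 hours and 29837 to 34351 at 24 hours, and Kupffer cell markers summed to 116 to 198, 37.7 to 82.7 and 118 to 121 FPKM in that order. Endothelial markers summed to 109.7 to 117, 60.5 to 73.7 and 73.8 to 84.0 FPKM, stellate cell markers to 59.4 to 77.3, 75.6 to 104 and 94.9 to 142 FPKM and cholangiocyte markers to 3.40 to 3.66, 5.38 to 26.8 and 4.35 to 9.45 FPKM. None of these markers was at 0, and their part in the members' values was not tested.

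In the mevalonate arm 7 of 8 enzymes fell at 6 hours and all 8 at 24 hours. Hmgcs1 measured 133, 114 and 163 FPKM in normal liver, 25.7, 17.9 and 7.47 FPKM at 6 hours and 23.5, 21.3 and 22.5 FPKM at 24 hours, with log2 fold changes of -3.07 ± 0.49 (SE; 8.39-fold lower, adjusted p = 1.38e-04) and -2.54 ± 0.49. Mvd measured 21.2, 20.7 and 38.5 FPKM, then 3.53, 3.51 and 1.84 FPKM and 3.82, 1.34 and 3.31 FPKM (-2.79 and -2.87). All 6 and 24 hour samples of both genes lay far below the lowest normal sample. Fdft1 (-2.63 and -2.28) had the next largest change in this arm at both times. The 6 hour call of Fdps was lost without normal liver replicate 3 (adjusted p = 0.0647), and the 24 hour call of Idi1 without any 1 of normal liver replicates 1 and 3 and PHX-24h replicates 2 and 3 (adjusted p = 0.0635 to 0.0958).

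In the sterol arm 7 of 10 fell at each time, and Sc5d fell most. It measured 177, 173 and 204 FPKM in normal liver, 24.4, 16 and 25.6 FPKM at 6 hours and 45.6, 23.1 and 26 FPKM at 24 hours (-3.04 ± 0.25 (SE), adjusted p = 9.28e-07, and -2.57 ± 0.25). Msmo1 measured 145, 142 and 176 FPKM, 50.8, 28.6 and 12.5 FPKM and 48.7, 35.1 and 35.8 FPKM (-2.50 and -1.94). Sqle measured 29.4, 23.4 and 41.5 FPKM, 10.5, 6.61 and 6.93 FPKM and 18.6, 12.4 and 13.1 FPKM (-1.84 and -1.03). The 24 hour calls of Sqle and Lss were lost without any 1 of normal liver replicates 1 and 3 and PHX-24h replicates 2 and 3 (adjusted p = 0.0652 to 0.139). At 6 hours Lss was lost without any 1 of 5 libraries, all except normal liver replicate 2, and Nsdhl without any 1 of normal liver replicates 1 and 3 and PHX-6h replicates 2 and 3 (adjusted p = 0.051 to 0.0946). Dhcr7 came out under 2-fold without normal liver replicate 3 or PHX-6h replicate 3 (log2 fold change -0.87 and -0.96).

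Among the regulators Srebf1, Stard4 and Insig1 fell, and Srebf2 did not pass the test. Srebf1 measured 57.7, 65.7 and 72 FPKM in normal liver, 10.6, 8.89 and 8.84 FPKM at 6 hours and 13.9, 4.16 and 6.11 FPKM at 24 hours (-2.66 ± 0.37 (SE), adjusted p = 3.81e-05, and -3.01 ± 0.37, adjusted p = 5.57e-05). Srebf2 measured 14.5, 8.92 and 14 FPKM, 10.6, 9.23 and 6.57 FPKM and 10.6, 8.28 and 9.29 FPKM, with overlapping groups, a log2 fold change of -0.45 (adjusted p = 0.0695) and then -0.35 (adjusted p = 0.187). Stard4 fell from 30.2, 40.2 and 33 FPKM to 6.67, 3.66 and 1.98 FPKM (-2.89) and stood at 23.1, 6.29 and 8.97 FPKM at 24 hours. Insig1 went from 132, 155 and 151 FPKM to 110.2, 42.4 and 9.55 FPKM, a wide spread, and to 24.4, 13.2 and 17 FPKM at 24 hours (-1.99 and -2.98).

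Of the fatty acid genes 1 of 7 fell at 6 hours and 4 of 7 at 24 hours. At 6 hours Fasn (52.3, 26.8 and 16 FPKM against 60.4, 29.2 and 80.7 FPKM in normal liver, -0.86, adjusted p = 0.119) and Scd1 (748, 376 and 912 FPKM against 681, 694 and 1089 FPKM, -0.34, adjusted p = 0.716) overlapped with normal liver. Fasn was called lower at 6 hours without normal liver replicate 2 or without PHX-6h replicate 1 (log2 fold change -1.27 and -1.29). At 24 hours Fasn measured 15.9, 6.81 and 7.85 FPKM (-2.34) and Scd1 192, 273 and 122 FPKM (-2.10), below every normal sample, although the Scd1 call was lost without any 1 of the 6 libraries compared (adjusted p = 0.0507 to 0.129). Acss2 was lower at both times (-1.44 and -2.41). The direct comparison of 24 hours with 6 hours called Acly (-1.61), Fasn (-1.48) and Pmvk (-1.31) lower and Stard4 (1.35) higher, where 1.53% of all genes were called lower and 5.19% higher. After quantile normalisation Acss2 (-1.15) was lower too. Only the Acly call held whichever library was left out. The others were lost without PHX-6h replicate 1 (Fasn and Pmvk), PHX-24h replicates 2 or 3 (Fasn), and PHX-24h replicate 1 or PHX-6h replicate 3 (Stard4), with log2 fold changes of -1.05 to -1.35, -0.99 and 0.85 to 1.01.

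**Figure D5:**
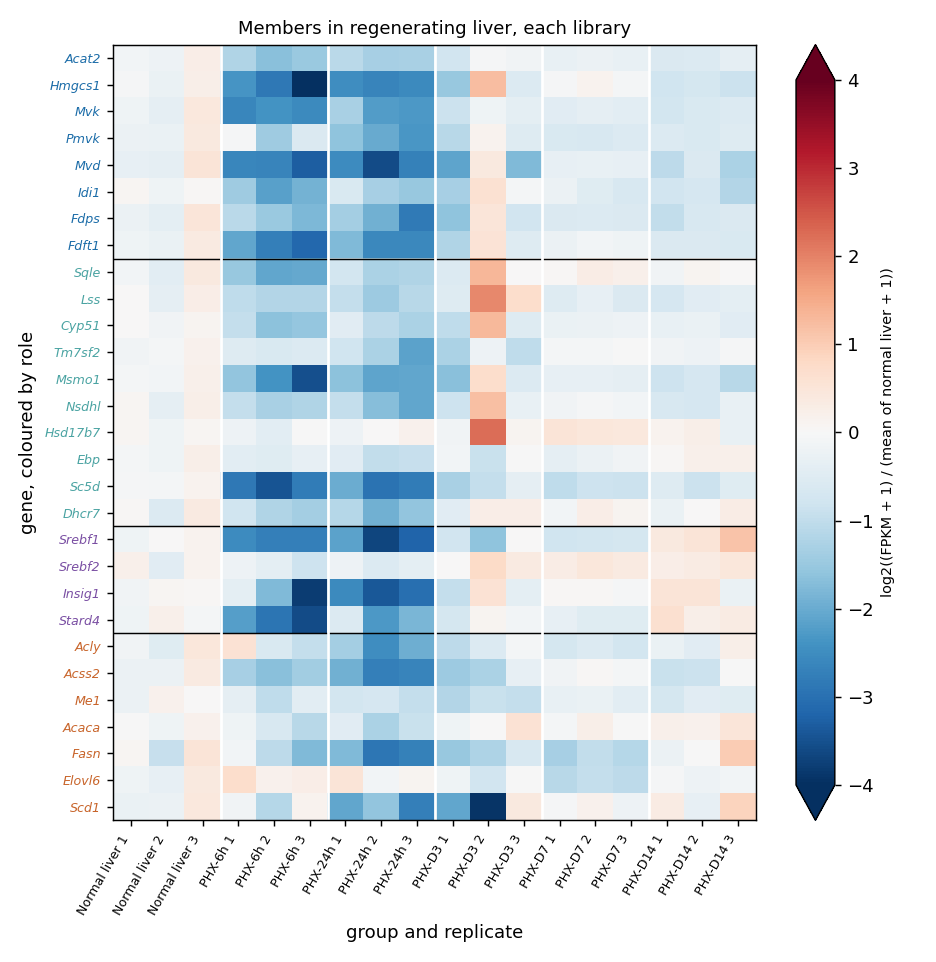
Level of each of the 29 members in every liver sample, as the colour of log2 of the ratio of (FPKM + 1) to that of the normal liver mean; rows are genes coloured by role and columns are the 18 samples ordered by time after PHX. The 6 and 24 hour columns are low for most genes, and among the 3 samples at 3 days replicate 2 is the highest for 20 genes and replicate 1 the lowest for 25.

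At 3 days most members were above their level at 24 hours, with a wide spread. Against 24 hours 19 members were higher and none lower, where 2.07% of all genes were called higher and 1.65% lower (3.72% either way), with a median of 1.38 against 0.05, and 20 were higher after quantile normalisation. The count was 11 without PHX-24h replicate 2, and 11 calls held whichever library was left out, among them Insig1 (2.72), Hmgcs1 (2.27), Srebf1 (2.23), Fdft1 (1.91), Lss (1.88), Sc5d (1.71) and Acss2 (1.42). The 3 samples at 3 days stood apart from each other. Hmgcs1 measured 46.9, 321 and 92.4 FPKM, Insig1 74.5, 218 and 111 FPKM, Sqle 21.2, 81.1 and 31.5 FPKM and Srebf1 37.7, 20.5 and 66.4 FPKM in replicates 1 to 3. Scd1 measured 192, 53.6 and 1082 FPKM, so that the replicate highest for most cholesterol enzymes was the lowest for this gene. The median coefficient of variation over the members was 46.3% at 3 days, 20.9% in normal liver and 5.75% at 7 days.

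Against normal liver none of the members passed both thresholds by limma at 3 days (8 with an unadjusted p under 0.05, 1 by voom on recovered reads) or at 14 days (5 and 0). In those comparisons 5.82% and 2.98% of all genes were called. At 7 days only Elovl6 was called (-1.01, where 1.03% of genes were lower and 7.81% higher), and not without normal liver replicate 3 (-0.79) or PHX-D7 replicate 1 or 3 (-0.98 and -0.9986). At 7 days Hmgcs1 measured 132, 149 and 129 FPKM, Insig1 150.4, 152 and 143 FPKM and Srebf1 36.7, 38.9 and 40 FPKM. At 14 days Srebf1 measured 86.2, 93.8 and 145 FPKM, Fasn 47.8, 55.9 and 115 FPKM and Scd1 1024, 652 and 1519 FPKM, with replicate 3 the highest for each. Missing the threshold does not show that these samples matched normal liver, since Sc5d at 91, 103 and 101 FPKM at 7 days stayed below all normal samples (-0.90, adjusted p = 0.0148). Without any threshold, 13 of 29 members lay below every normal sample at 7 days and 2 above (16.7% and 39% of all genes). At 14 days 13 lay below and 4 above (30% and 13.7%), and at 3 days 4 and 0 (19.6% and 20.2%). From 3 to 7 days only Lss was called (-1.19), and not without any 1 of PHX-D3 replicates 2 and 3 and PHX-D7 replicates 1 to 3 (adjusted p = 0.0526 to 0.105). At 3 days against normal liver, up to 5 members were called when 1 library was left out, among them Scd1 (-2.97) and Srebf1 (-1.19) lower without PHX-D3 replicate 3, Mvd (-1.88) and Hmgcs1 (-1.03) lower without PHX-D3 replicate 2, and Lss (1.34) higher without PHX-D3 replicate 1. Kupffer cell markers summed to 704 to 1020 FPKM at 7 days and to 116 to 198 in normal liver.

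Of the other SREBP pathway genes, 7 of 21 tested were lower and 1 higher at 6 hours (11.5% and 4.78% of all genes), and 9 lower at 24 hours (4.16%). After quantile normalisation 4 and 7 were lower. The gene that rose was Insig2, the second sterol-dependent anchor of Scap, with 62.0 to 95.3 FPKM in normal liver and 303 to 848 FPKM at 6 hours (log2 fold change 2.67 ± 0.68 (SE), adjusted p = 0.00434), while Insig1 fell. Mlxipl (-2.59) and Aacs (-2.03), which activates acetoacetate, fell most at 6 hours, and Thrsp (-3.96) and Aacs (-2.003) at 24 hours. Abca1 went from 10.95 to 13.5 FPKM in normal liver to 58.7 to 81.1 FPKM at 6 hours (2.43) and was higher at 24 hours too (1.48). From 24 hours to 3 days 7 of these genes rose (2.07% of all genes), or 8 after quantile normalisation.

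Levels of the regulators and of the enzymes were set side by side as a description, over group means that share controls and depth. Over the 11 cell groups the Pearson correlation of log2(FPKM + 1) with the mean of the 18 cholesterol enzymes was 0.89 for Srebf1, 0.51 for Srebf2 and 0.85 for Insig1. Over the 6 liver groups it was 0.88, 0.84 and 0.93. With the mean of the fatty acid genes it was 0.81 for Srebf1 and 0.49 for Srebf2 in the cells, and 0.81 and 0.43 in the liver.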

How the data were processed

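RNA-seq of mouse cells and livers was deposited as FPKM values per gene symbol, which the authors made with TopHat 1.4.1 and Cufflinks 1.3.0 on mm10 according to the submitters' processing notes. The deposited files do not name the unit. Values of 18826 genes of the cells and 17327 of the livers were tested as whole multiples of 1 read, and 100% and 99.99% of genes came out whole within 0.01 reads, which gave depths of 49.3 to 88.8 M reads for cells and 46.8 to 73.9 M reads for livers. The day 7 table (480 symbols, 1 row cut off) gave no depth. Samples were grouped by their titles.

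Each table was fitted on its own with limma 3.58.1 (R 4.3.3) and a trend in the prior variance, on log2(FPKM + 1), with all its groups and no covariate, after keeping the 12328, 11114 and 276 genes that reached 1 FPKM in 3 samples. Benjamini-Hochberg adjustment ran over every gene of a table, and a gene was called at adjusted p under 0.05 and at least 2-fold. Fold changes are on the log2(FPKM + 1) scale and understate those of low genes. Tables were not tested against each other. The fit was tested on simulated data.

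Results were recomputed with quantile normalisation, with a replicate block, without the fold threshold, with a pseudocount of 0.1, unfiltered or filtered at 5 FPKM, with voom on the recovered reads, each sample left out and, chosen after seeing the data, the clone-1 line left out. The members and lists were chosen with earlier results of these data known. Given with every sample were Srebf1, Srebf2, Insig1, Sqle, Fasn, Scd1 and, per role, the 2 members with the widest range of group means in cells and in liver, and beyond these the 3 largest calls per role and direction and the 2 largest of the other lists. Some genes of the other lists are not reported here by name. Further members named with values in the text were picked after their values were seen. Promoter windows were RefSeq sequences of GRCm38.p6, and tables and figures were made with Python 3.11.15, pandas 2.3.3 and matplotlib 3.10.9.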

Additional observations from a re-analysis of the deposited data

Results flagged for a closer look

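The response of the mouse-1 line to maturation differed between P35 and P10 for 6 members by a test of the difference itself, an interaction term in limma. In the same test 33.7% of all genes were called (9.65% higher and 24.1% lower). The share of members called (20.7%) was thus below that of all genes. On the log2 scale the P35 minus P10 difference was 1.94 for Acaca and 1.67 for Acss2, and it was -2.22 for Hmgcs1, -1.52 for Mvk, -1.31 for Acat2 and -1.12 for Fdps. Acaca fell by 2.85 at P10, and its P35 change was -0.91. Acss2 changed by -0.13 at P10 and 1.54 at P35. Hmgcs1 changed by -0.61 and -2.83, Mvk by 0.34 and -1.17, Acat2 by -0.43 and -1.73, and Fdps by -0.06 and -1.18. After quantile normalisation Fdps was no longer called, Me1 (1.17) and Fasn (1.002) were, and 4 differences were positive and 3 negative in place of 2 and 4. The groups are 3 technical repeats of 1 line at each passage.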

How the results depend on the processing

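Among the values of single members in all comparisons, 590 of 598 kept their side of the thresholds with a pseudocount of 0.1, 593 without the filter, 598 with a filter at 5 FPKM and 572 of 580 by voom. After quantile normalisation 519 did, 39 lost and 38 gained a call, and Elovl6 against hepatocytes reversed to -0.45 at day 3 and -0.16 at day 14. When 1 sample was left out at a time, 84 of 15822 values lost and 49 gained a call. Same-numbered samples did not deviate together on average (mean correlation -0.015 for cells, -0.030 for livers and -0.079 at culture day 7). Single same-numbered pairs of cell samples ran from -0.54 to 0.57, and a mean over all groups cannot show whether particular groups were paired. With the replicate block all 598 values and every count kept their call.

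Without the fold threshold the counts of members called were 25 for day 14 against hepatocytes and against day 3, 26 for IL6-iHPCs and 23 for IL6-iMHs against hepatocytes, 28 for IL6-iMHs against IL6-iHPCs, 26 for P35 against P10, 23, 25 and 29 for maturation of mouse-1 P10, mouse-2 P10 and mouse-1 P35, 23 for the interaction, and 16, 12 and 11 in all 4 lines for IL6-iHPCs against hepatocytes, IL6-iMHs against hepatocytes and IL6-iMHs against IL6-iHPCs. In liver they were 4 at 3 days, 2 at 7 days, 1 at 14 days and 5 for 7 against 3 days, and at culture day 7 they were 5 for IL6 against HCM, 4 for IL6 and 5 for HCM against primary hepatocytes. After quantile normalisation they were 7 for P35 against P10, 5 and 1 in all 4 lines for IL6-iHPCs against hepatocytes and IL6-iMHs against IL6-iHPCs, 3 at 7 days after PHX, and 4 and 6 for IL6 and HCM against primary hepatocytes, and the correlation of Insig1 with fatty acid genes over cell groups went from 0.39 to 0.54. At 3 days after PHX 2 members were called with a pseudocount of 0.1 and 1 by voom. With 1 sample left out the counts ran from 0 to 5 at 3 days, 0 to 2 at 7 days, 2 to 5 for 24 against 6 hours (2 without PHX-6h replicate 1), 11 to 23 for 3 days against 24 hours and 0 to 3 for 7 against 3 days. Shares of all genes called were computed for the main setting only. The counts here therefore show how the calls moved with the setting, and not how members compared with other genes. The cause of the changes in count was not tested.

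The limits were 3 samples a group, technical repeats in culture, and the wide spread at 3 days after PHX. The depth of the day 7 culture table is unknown, and in the liver each member had at least 131 reads in every sample.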
